A study of Homo sapiens with 4 samples.

Results

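The HOXC cluster consists of the 9 genes HOXC4, HOXC5, HOXC6, HOXC8, HOXC9, HOXC10, HOXC11, HOXC12 and HOXC13, taken from a list of names and located in the GENCODE annotation of hg19, among 20163 protein-coding genes with an annotated transcript. They lie head to tail on the plus strand of chromosome 12, from HOXC13 at 54332615 to the end of HOXC4 at 54449814, which is 117200 bp. A gene was counted as marked in a cell line when a deposited H3K27ac peak of that line overlapped 1 kb either side of any of its transcript starts, and all peaks in the cluster and 50 kb around it (217200 bp) were described. This interval held 12 of the 85576 peaks of COLO-205, 13 of the 75468 of DU-145, 7 of the 76093 of OVCAR-3 and none of SKOV-3, whose list was the shortest.

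H3K27ac is an acetylation of histone H3 found at active promoters and enhancers. It was profiled by ChIP-seq in 4 established human cancer lines, which are COLO-205 from colon, DU-145 from prostate, and OVCAR-3 and SKOV-3 from ovary. The labels name no treatment or genetic change for any line, and all were grown with FBS to near confluence, in RPMI media for COLO-205 and OVCAR-3, Eagle minimal essential medium for DU-145 and McCoy's 5a for SKOV-3. Each line had 1 library and no replicate, so presence, absence and strength of a peak are descriptions of single libraries, and the intervals given below cover counting error only. In a bulk library, a weak mark in all cells and a strong mark in a few cells cannot be told apart.

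HOX genes encode homeodomain transcription factors that give cells their position along the body axis. Within a cluster the order on the chromosome follows the order of use in the embryo, with HOXC4 at the anterior end and HOXC13 at the posterior end. Where HOX genes are silent they are commonly held by Polycomb, which methylates the same lysine that H3K27ac acetylates. The genes are interleaved with non-coding RNA genes, including HOTAIR, which is transcribed against HOXC11, and the microRNA genes MIR196A2 and MIR615.

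A pair of values lies behind each summit, the pileup of ChIP tags and the local background, and they were recovered from fold enrichment and p for 99.92% of the OVCAR-3 list and more of the others. The ChIP tags estimated from the lists numbered 36000000 in DU-145, 34200000 in OVCAR-3, 29800000 in COLO-205 and 22400000 in SKOV-3. Of 7 colon markers COLO-205 marked 4, near its share of all protein-coding genes (51.1%), with fold enrichments of 6.84 at CDX2 and 5.66 at VIL1, and CDX1, KRT20 and CDH17 had no peak. Among prostate markers, TMPRSS2 had a peak in DU-145, whereas KLK3, FOLH1, HOXB13 and ACPP (ACP3 in the annotation) had none there. Of 6 ovarian and Mullerian markers OVCAR-3 marked 6, COLO-205 4, DU-145 3 and SKOV-3 2, PAX8 and SOX17, where the shares of all protein-coding genes were 60.5%, 51.1%, 59.8% and 31.6%. The epithelial genes EPCAM, KRT8, KRT18 and CDH1 were marked in 3 lines and KRT8 and KRT18 in SKOV-3, and none of the 3 matched markers of other cells, PTPRC, CD3E and COL1A2, was marked in any line.

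In DU-145, 6 of the 9 HOXC genes had a promoter peak, where 59.8% of all protein-coding genes had one in the same list. In COLO-205 there were 4 of 9 against 51.1%, in OVCAR-3 2 of 9 against 60.5%, and in SKOV-3 0 of 9 against 31.6%. The DU-145 and COLO-205 counts were thus near the share of all genes, and the OVCAR-3 and SKOV-3 counts lay below it. The place of COLO-205 depended on the threshold, since with peaks of a −log10 q of at least 10 it had 0 of 9 against 31.7%. HOXC genes have fewer annotated transcript starts than most, a median of 2 against 5, and each start is a chance to meet a peak. With only the MANE Select start of each gene, which was chosen as a setting once the peaks were known, the counts were 5, 3, 1 and 0 in DU-145, COLO-205, OVCAR-3 and SKOV-3, against 57.1%, 45.6%, 57.9% and 29.8% of the 18922 genes with such a start.

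**Figure D1:**
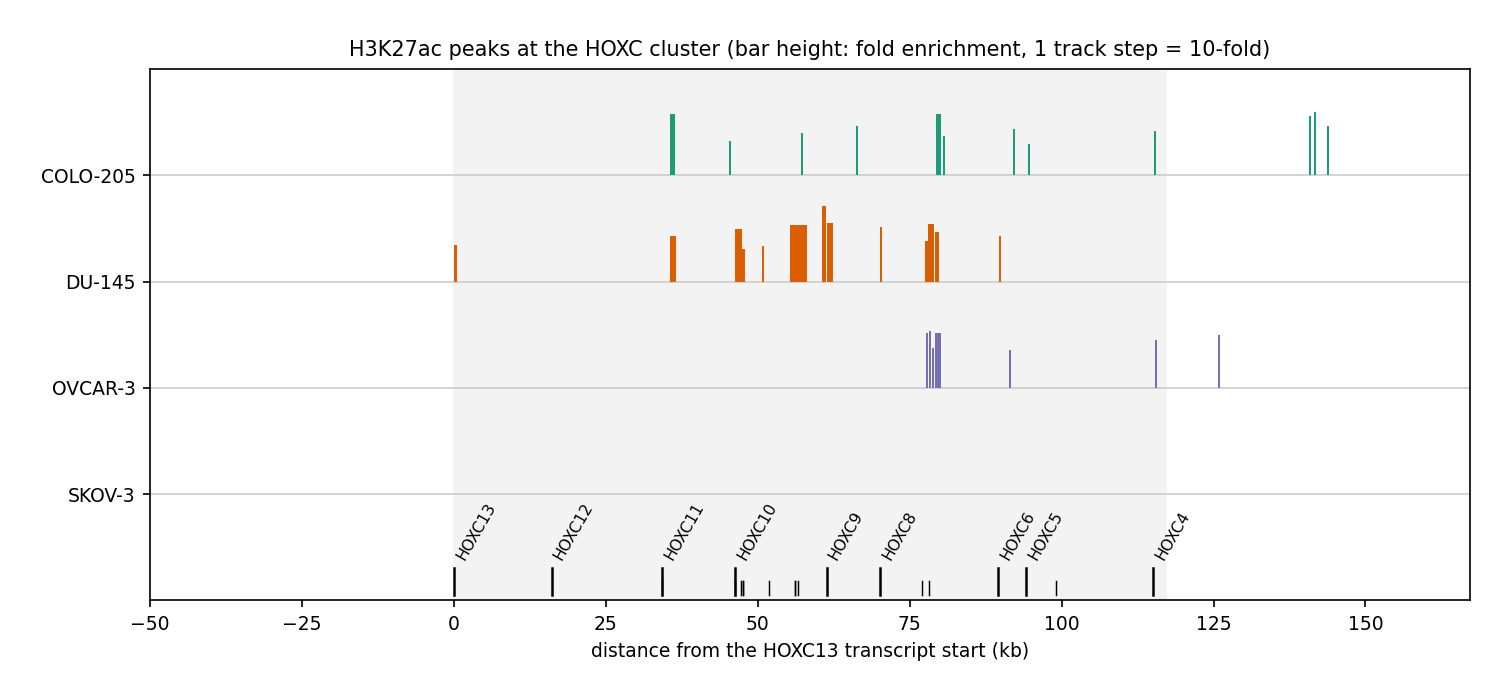
Map of the H3K27ac peaks in the HOXC cluster (grey) and 50 kb around it in the 4 lines, against the distance from the HOXC13 transcript start in kb. Bar height is the fold enrichment, narrow peaks are widened to be visible, and the ticks at the bottom are transcript starts, tall for the MANE Select start of each gene; DU-145 peaks run from HOXC13 to HOXC6, 4 of the 7 OVCAR-3 peaks stand around the upstream start of HOXC4 and the other 3 beyond it, and the SKOV-3 track is empty.

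At the posterior end, HOXC13, a gene required in hair and nail, was marked in DU-145 and in no other line. The DU-145 peak of 451 bp began at the HOXC13 transcript start and ended at 54333065, and its summit lay in the coding sequence, with 3.40-fold enrichment, a −log10 q of 11.8 and a pileup of 53 tags (exact Poisson 95% interval 39.7 to 69.3). Its fold enrichment was low for the list, above that of 12.3% of DU-145 peaks, and its local background of 14.9 tags was the highest among the 13. The antisense RNA gene HOXC13-AS starts within 1 kb of the same peak, so the mark cannot be assigned to one of both genes. HOXC12 had no peak within 1 kb of its start in any line.

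HOXC11 also had no promoter peak under the 1 kb rule, but COLO-205 and DU-145 had a peak inside the gene. The COLO-205 peak spanned 54368136 to 54369024 and was enriched 5.76-fold at a −log10 q of 19. The DU-145 peak spanned 54368185 to 54369149 and was enriched 4.25-fold at a −log10 q of 13. Their summits lay 1464 and 1669 bp downstream of the nearest HOXC11 start, in an intron of HOXC11 and of HOTAIR as annotated, and within 1 kb of a HOTAIR start. HOTAIR is a long non-coding RNA studied for its role in silencing the HOXD cluster. A window of 2 kb counts HOXC11 as marked in both lines. The pileup was 1.54 tags per 1000000 in COLO-205 (1.13 to 2.06) and 1.19 in DU-145 (0.863 to 1.61), and the intervals overlapped.

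HOXC10, a posterior gene expressed in hindlimb, was marked in COLO-205 and DU-145. DU-145 had a peak within 1 kb of each of its 5 transcript starts, the strongest from 54378907 to 54380047, a peak of 1141 bp with 4.95-fold enrichment, a −log10 q of 18.5 and a pileup of 52 tags (38.8 to 68.2). In COLO-205 the only peak was of 257 bp, 829 bp upstream of the nearest HOXC10 start in an exon of the antisense gene HOXC-AS3, with 3.27-fold enrichment, a −log10 q of 4.13 and a pileup of 18 tags (10.7 to 28.4). It was the weakest by −log10 q of the 32 peaks, above 1.78% of the COLO-205 list, and did not overlap a peak of DU-145. The shared mark of HOXC10 in both lines thus rests on different positions.

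HOXC9 had the peak of highest fold enrichment of the cluster, in DU-145. The peak of 617 bp from 54393217 to 54393833 had its summit 276 bp upstream of the MANE Select start, in an exon of HOXC-AS1 and an intron of the longer HOXC9 transcripts. Its fold enrichment was 7.14, above that of 93.5% of the DU-145 list, its −log10 q 36.0 and its pileup 73 tags (57.2 to 91.8). By pileup per 1000000 tags (2.03) it stood just below the wide DU-145 peak described next and the OVCAR-3 peak in the HOXC4 intron, with overlapping intervals.

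A second HOXC9 peak followed from 54393948 to 54395048 with its summit in the coding sequence and 5.53-fold enrichment, and the widest peak of the cluster, at 2665 bp, lay at the upstream HOXC9 starts from 54388001 to 54390665 with 5.36. That peak was wider than 99.4% of the DU-145 list and also covered a HOXC6 start and met the promoter of HOXC-AS2. COLO-205 marked HOXC9 at the same place only, with a peak of 214 bp inside the wide DU-145 peak, 3.97-fold enrichment and a −log10 q of 8.60. Here the counting intervals of the pileups did not overlap, 2.08 tags per 1000000 in DU-145 (1.64 to 2.61) against 1.04 in COLO-205 (0.707 to 1.48). The local background differed with them, 13.2 tags in DU-145 against 7.05 in COLO-205, and its part in the difference was not tested. The smallest peak width, which served as the tag length, was 248 bp in DU-145 and 214 bp in COLO-205. Pileups per 1000000 tags were not corrected for it.

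HOXC8, a thoracic gene, was marked in DU-145 only. The peak of 441 bp from 54402690 to 54403130 had 5.11-fold enrichment, a −log10 q of 13 and a pileup of 34 tags (23.5 to 47.5), and its summit lay 221 bp downstream of the start. COLO-205 had a peak of 267 bp in the neighbourhood, with its summit 3877 bp upstream of the HOXC8 start, a fold enrichment of 4.65 and no overlap with the other lines.

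**Figure D2:**
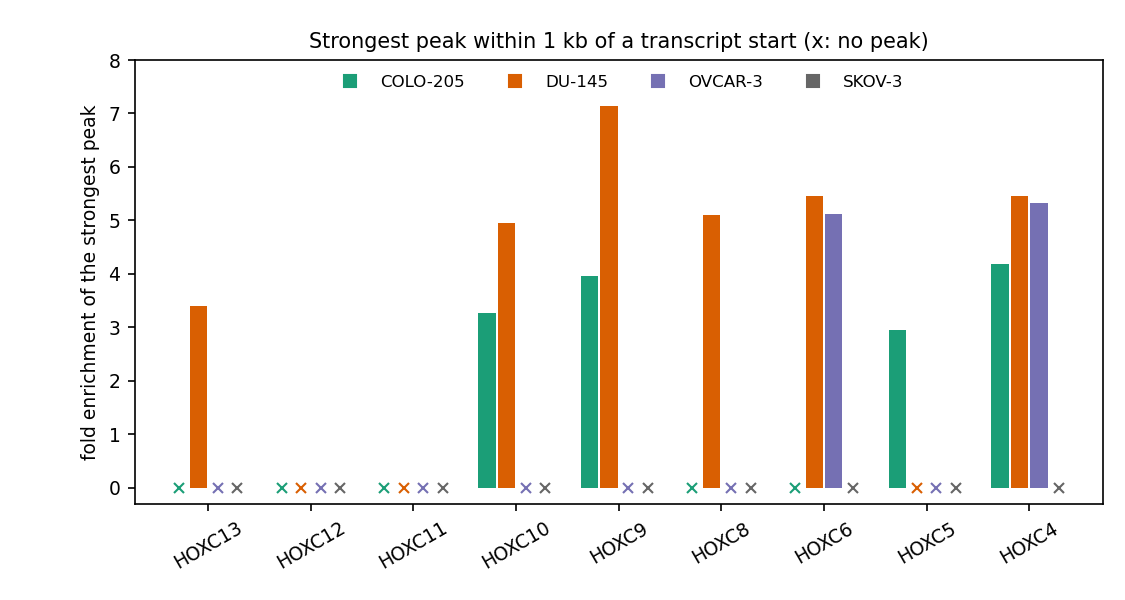
Fold enrichment of the strongest peak within 1 kb of a transcript start for each HOXC gene (in chromosome order) in each line, with a cross where the line had no peak. DU-145 has bars at 6 genes with the highest at HOXC9 (7.14), OVCAR-3 only at HOXC6 and HOXC4, and SKOV-3 at none; fold enrichments are within one library and are not scaled between lines.

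The anterior genes HOXC4, HOXC5 and HOXC6 share a transcription unit, with upstream starts of HOXC6 at 54409681 and of HOXC4 at 54410715 and later starts of their own. Marks there could belong to more than 1 gene. HOXC6, which is often raised in prostate cancer, was marked in DU-145 and OVCAR-3. DU-145 had a peak overlapping 1 kb around each of the 4 HOXC6 starts. At the MANE Select start it was of 262 bp, with 4.32-fold enrichment, a −log10 q of 10.4 and a summit 204 bp downstream. The start at 54384408 was met only by a peak of 3.38-fold enrichment with its summit 1028 bp away, in a UTR of HOXC10. The start at 54388728 was met only by the wide peak at HOXC9. In DU-145 the strongest peak at HOXC6, with 5.45-fold enrichment, is also the strongest at HOXC4. The OVCAR-3 call rests on the start at 54409681 alone, where a peak of 223 bp was enriched 5.12-fold at a −log10 q of 10.5, and that peak lies nearer to the upstream HOXC4 start. In OVCAR-3 no peak overlapped the MANE Select start window of HOXC6, and the next peak, of 221 bp, had its summit 1752 bp downstream of that start with 3.53-fold enrichment.

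HOXC5 was marked in COLO-205 only, by a peak of 241 bp from 54427027 to 54427267 with the summit in its coding sequence. Its fold enrichment of 2.96 was the lowest of the 32 peaks and above that of 2.97% of the COLO-205 list, with a −log10 q of 6.19, although its pileup of 35 tags (24.4 to 48.7) was exceeded by only 2 of the 12 COLO-205 peaks. Its local background of 11.2 tags was the highest of those 12. The same peak lies within 1 kb of MIR615, the microRNA gene inside the HOXC5 intron. MIR196A2, the other microRNA gene of the cluster, had no peak within 1 kb in any line.

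HOXC4, the most anterior gene, was the 1 member marked in 3 lines, a pattern shared by 13% of protein-coding genes. The HOXC4 starts with a peak within 1 kb differed between DU-145 and COLO-205, and the peaks do not show which start is in use. DU-145 marked the upstream start at 54410715, with 5.45-fold enrichment at a −log10 q of 22 in a peak of 1093 bp, and not the MANE Select start at 54447619. COLO-205 marked the MANE Select start, with 4.19-fold enrichment at a −log10 q of 6.33, and had no peak within 1 kb of the upstream start. OVCAR-3 marked both, with fold enrichments of 5.33 in a peak of 199 bp near the upstream start and 4.50 in a peak of 199 bp in the coding sequence next to the MANE Select start. The COLO-205 and OVCAR-3 peaks at the MANE Select start had pileups of 20 tags each (12.2 to 30.9). They overlapped at their edges into a region of 398 bp, with summits 212 bp apart.

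The 1 region with a peak in COLO-205, DU-145 and OVCAR-3 lies just downstream of that upstream HOXC4 start, more than 1 kb from every HOXC start. It spans 1011 bp, from 54411733 to 54412743, in introns of HOXC4 and HOXC6, and is 1 of 24 merged regions in the interval. The peak was of 825 bp in COLO-205, where it was enriched 5.81-fold at a −log10 q of 22.6. In DU-145 it was of 594 bp, with 4.67-fold at 20.6, and in OVCAR-3 of 963 bp, with 5.16-fold at 26.9. The 3 summits fell within 108 bp of each other, 1449, 1442 and 1341 bp downstream of the HOXC4 start. The pileups per 1000000 tags were 1.85 in COLO-205 (1.39 to 2.40), 1.72 in DU-145 (1.32 to 2.20) and 2.1 in OVCAR-3 (1.65 to 2.65), and all 3 intervals overlapped. In COLO-205 and OVCAR-3 this was the highest pileup of the interval. The region is shown as the mark that the 3 lines had in common. The sequence is chr12:54411961-54412260 of hg19, plus strand, with the 109 bases from the first to the last summit in capitals, and 66.7% of it is G or C, with 16 CpG.

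Shared HOXC4 and HOXC6 intronic region: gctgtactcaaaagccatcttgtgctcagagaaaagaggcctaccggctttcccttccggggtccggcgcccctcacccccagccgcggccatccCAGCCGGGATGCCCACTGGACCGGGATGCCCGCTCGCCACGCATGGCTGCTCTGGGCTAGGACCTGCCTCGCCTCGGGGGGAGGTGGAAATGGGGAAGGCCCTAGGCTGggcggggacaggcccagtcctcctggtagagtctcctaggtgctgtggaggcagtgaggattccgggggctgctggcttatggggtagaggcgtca

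**Figure D3:**
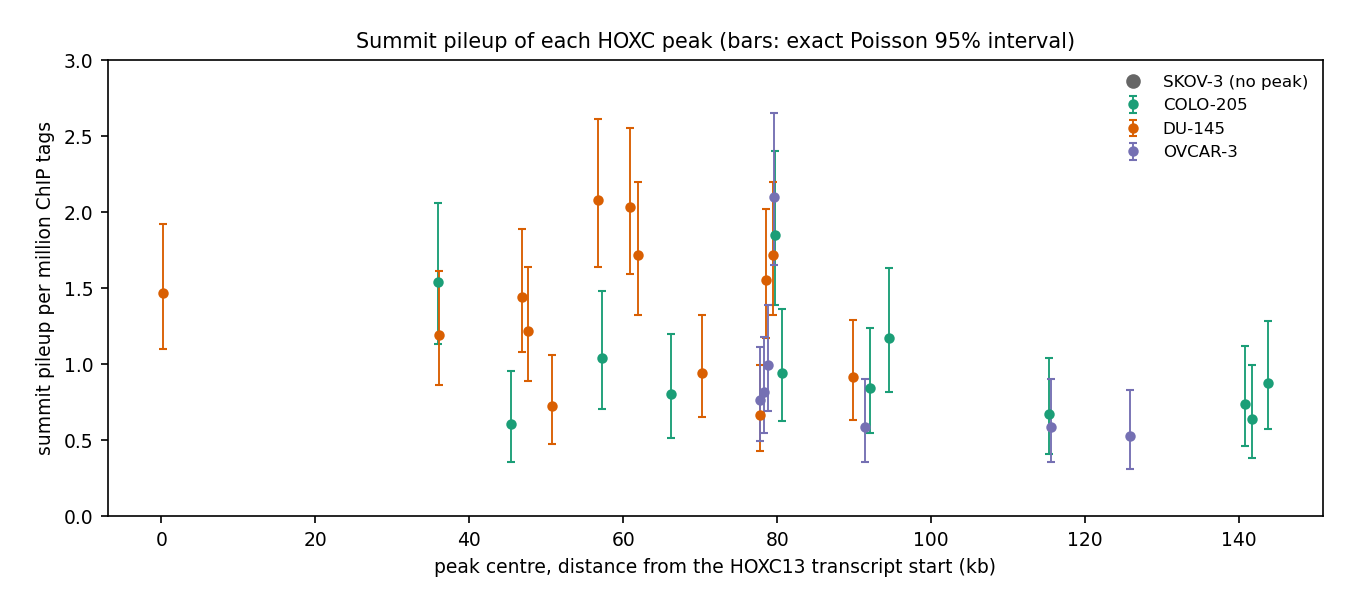
Summit pileup per 1000000 ChIP tags of each of the 32 peaks against the distance of the peak centre from the HOXC13 transcript start in kb, with exact Poisson 95% intervals for counting error. At the region marked in 3 lines the values lie between 1.72 and 2.1 with overlapping intervals, and DU-145 reaches 2.08 and 2.03 at HOXC9; SKOV-3 has no peak to plot.

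Of the 24 merged regions, 8 were found in COLO-205 only, 8 in DU-145 only and 2 in OVCAR-3 only. Another 2 were found in COLO-205 and DU-145, 2 in DU-145 and OVCAR-3 and 1 in COLO-205 and OVCAR-3. DU-145 overlapped 3 of the 12 COLO-205 peaks (25.0%), where it overlapped 17.4% of the whole COLO-205 list. COLO-205 overlapped 3 of the 13 DU-145 peaks (23.1%), against 18% of the whole list. Of the 7 OVCAR-3 peaks, DU-145 overlapped 4 (57.1%) and COLO-205 2 (28.6%), against 32% and 20% of the whole list. OVCAR-3 overlapped 3 of the 13 DU-145 peaks (23.1%) and 2 of the 12 COLO-205 peaks (16.7%), against 31% and 19.3%. By gene, COLO-205 and DU-145 had the same state at 5 of the 9 members, as had COLO-205 and OVCAR-3, and DU-145 and OVCAR-3, where 71.6%, 71.6% and 83.5% of protein-coding genes had the same state. With SKOV-3, where all members were unmarked, COLO-205 shared the state of 5 and DU-145 that of 3, against 70.5% and 68.4% of genes. The 2 ovarian lines had the same state at 7 of 9, against 68.2% of protein-coding genes, and all 7 were genes marked in neither line.

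The position of the peaks along the cluster differed between the lines. In DU-145 all 13 peaks lay within the cluster and 11 of them at HOXC promoters. They covered 10274 bp or 8.77% of the cluster, with a median width of 594 bp. In COLO-205 9 of 12 peaks lay within the cluster and 4 at HOXC promoters, covering 2.90% of it. In OVCAR-3 6 of 7 peaks lay within the cluster and 4 at HOXC promoters, covering 1.77%, and all lay from 54410250 onwards, next to the upstream HOXC4 start or beyond it. The other COLO-205 peaks of the cluster were one of 265 bp with its summit 2457 bp downstream of the upstream HOXC4 start (3.68-fold) and one of 225 bp 2111 bp upstream of HOXC5 (4.38-fold). The flank beyond HOXC13 was empty in each line. The flank beyond HOXC4 held 3 COLO-205 peaks, with fold enrichments of 5.54, 5.95 and 4.6, and 1 OVCAR-3 peak with 4.98, all of at most 299 bp, inside introns of the long non-coding RNA gene FLJ12825. The COLO-205 peaks of this flank lay at starts of unnamed long non-coding RNA genes or of a pseudogene, and the OVCAR-3 peak at none.

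Among 12963 genome windows of the same length, 13.6% held at least the 13 DU-145 peaks and 8.15% at least as many bases under peaks. For the 12 peaks of COLO-205 the share of windows was 15.7%, and for the 7 of OVCAR-3 21.4%. Of these windows, 69.6% held a COLO-205 peak, 62.5% an OVCAR-3 peak, 52.2% a DU-145 peak and 34.1% a SKOV-3 peak, so that the empty interval of SKOV-3 is the more common state of a window in its list. The peaks were of moderate strength. Their median fold enrichment was 4.49 in COLO-205, 4.67 in DU-145 and 4.98 in OVCAR-3, where all peaks of these lists had medians of 4.73, 4.50 and 5.37. Their median local background in DU-145, 9.45 tags, was above the list median of 4.95, while COLO-205 had 4.91 against 4.29 and OVCAR-3 had 4.44 against 4.19.

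In SKOV-3 the nearest peaks lay 312466 bp before the cluster, at ATF7, and 362907 bp after it, at ITGA5, so that 793 kb were without a peak. Gaps of at least this length were 5.98% of the 13977 gaps between neighbouring SKOV-3 peaks. That share counts gaps and not bases. Long gaps cover more of the genome, so a given position lies in one more often than the share states. Within the gap DU-145 had 63 peaks, OVCAR-3 36 and COLO-205 25, but its limits were set by where SKOV-3 had none. Pileups and backgrounds were scaled by the lowest local background of SKOV-3 over that of each list. These factors were 0.674 for COLO-205, 0.481 for DU-145 and 0.632 for OVCAR-3, and are not ratios of ChIP tags. So scaled, 11 of 12 COLO-205, 11 of 13 DU-145 and 6 of 7 OVCAR-3 peaks of the interval passed the lowest −log10 p of SKOV-3 (5.48). Elsewhere in the genome, peaks of the same range of fold enrichment that passed in this way were overlapped by a SKOV-3 peak in 8.68% of cases for COLO-205, 15.1% for DU-145 and 5.11% for OVCAR-3. Most peaks of this strength elsewhere thus also had no counterpart in SKOV-3. SKOV-3 did mark another HOX cluster, with 44 peaks over 13.5% of HOXB and a fold enrichment of up to 13.2.

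Set beside the other HOX clusters, HOXC had the smallest share of bases under peaks in COLO-205, OVCAR-3 and SKOV-3, but not in DU-145. OVCAR-3 peaks covered 21.7% of HOXA, 2.92% of HOXB and 4.07% of HOXD against 1.77% of HOXC. DU-145 covered 12.7% of HOXA and 7.17% of HOXB, with HOXC between them at 8.77% and HOXD at 0.447%. COLO-205 covered 10.8% of HOXA, 8.24% of HOXB and 3.99% of HOXD against 2.90% of HOXC. By gene, DU-145 marked 7 of 11 HOXA, 7 of 10 HOXB and 1 of 9 HOXD genes, and COLO-205 marked 8 of 11, 7 of 10 and 5 of 9. OVCAR-3 marked 8 of 11, 5 of 10 and 4 of 9, and SKOV-3 marked 2 of 11, 8 of 10 and 4 of 9. These clusters differ in length and number of genes, and with 1 library per line the differences have no replicate check.

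**Figure D4:**
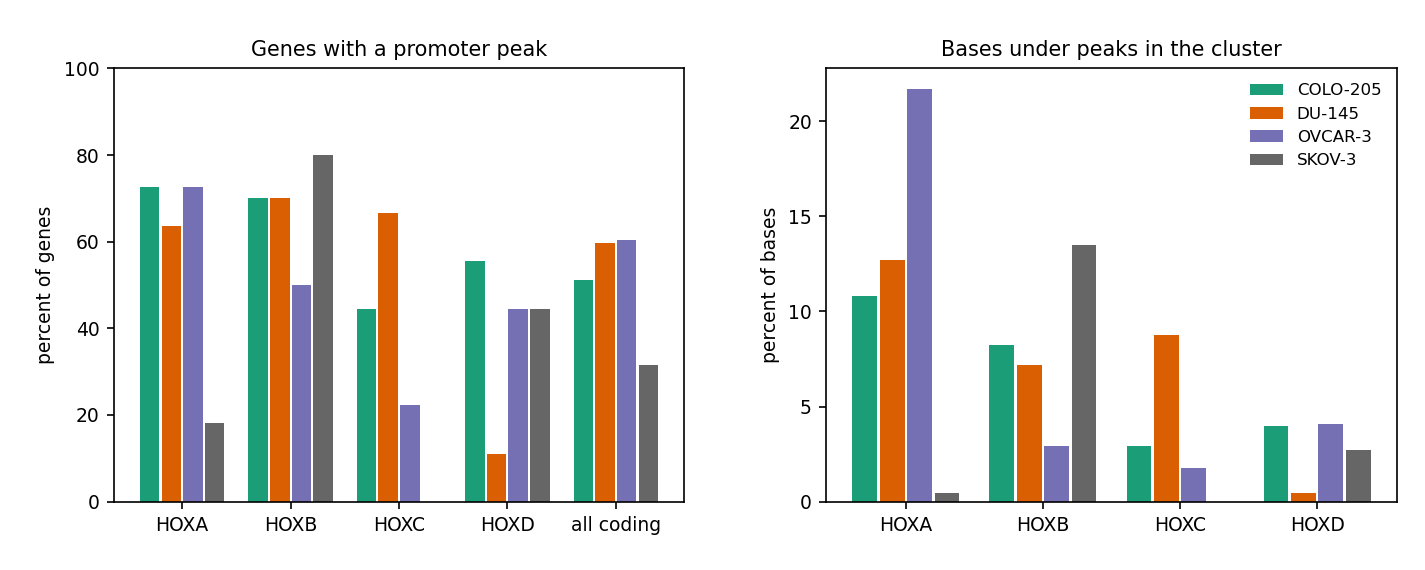
Left, percent of the genes of each HOX cluster, and of all protein-coding genes, with a peak within 1 kb of a transcript start in each line. Right, percent of the bases of each cluster under peaks; in HOXC, DU-145 has the highest bars (66.7% of genes and 8.77% of bases) and SKOV-3 has none, whereas SKOV-3 covers 13.5% of HOXB.

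Some HOX genes of the other clusters had the same state as a HOXC gene in all 4 lines. HOXD1 shared the DU-145-only state of HOXC13 and HOXC8, which 4.35% of protein-coding genes had. HOXA11 shared the COLO-205 and DU-145 state of HOXC10 and HOXC9 (2.62% of genes). HOXA6 shared the state of HOXC6 (9.98%), and HOXA5 and HOXA9 that of HOXC4. HOXA13, HOXD10 and HOXD12 were marked in COLO-205 only, like HOXC5 (6.16%), and HOXB1 in no line, like HOXC11 and HOXC12 (25%).

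The HOXC promoters differed in base composition. In 1 kb either side of the MANE Select start, G and C made up 62.7% of the bases at HOXC13, 62.0% at HOXC10, 60.8% at HOXC8, 60% at HOXC9, 59.2% at HOXC12, 57.0% at HOXC11 and at HOXC4, 54.1% at HOXC5 and 49.6% at HOXC6, where the median of 18922 genes was 56.2%. The ratio of observed to expected CpG ran from 0.754 at HOXC13 and 0.732 at HOXC12 to 0.335 at HOXC6, with a median of 0.641 over all genes. Motifs were searched on both strands in the 300 bases around each summit. The AP-1 motif TGANTCA was at none of the 32 HOXC summits, where 4.57% of all COLO-205, 6.79% of DU-145 and 6.35% of OVCAR-3 summits had it. The HOX-PBX motif TGATNNAT was found once, as TGATATAT starting 83 bp before the summit of a DU-145 peak in a UTR of HOXC10, where 4.53% of DU-145 summits had such a match. The core CTCF motif was at none of them and at 0.821%, 0.747% and 0.7% of all summits of COLO-205, DU-145 and OVCAR-3.

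Among the other GENCODE genes with a start in the interval, HOTAIR, HOXC-AS2 and HOXC-AS3 were marked in COLO-205 and DU-145, HOXC-AS1 and HOXC13-AS in DU-145, MIR615 in COLO-205, and SKOV-3 marked none of them. FLJ12825 had no peak within 1 kb of its starts in any line. These genes overlap HOXC genes or start close to them, and the peaks do not tell them apart.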

How the data were processed

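H3K27ac ChIP-seq of 4 lines, with 1 library each, was analysed from the deposited peak lists. The authors mapped the reads with Bowtie2 2.1.0 to hg19 and ran MACS2 2.1.0.20150603 on each library at a q-value below 0.001. Per the narrowPeak column order, each deposited peak has a score (10 times the −log10 q), a fold enrichment ratio over the local background, a −log10 p, a −log10 q and a summit position. These are scaled within a library only. The merging of peaks under 350 bp apart given in the methods was not applied in the deposited lists and was an alternative here.

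Peaks were overlapped by at least 1 bp with 1 kb around each transcript start of GENCODE release 44 lifted to GRCh37, the build of the lists, and GRCh37 gave the sequences. Summit pileups and backgrounds were solved from fold and p (tolerance 0.001), tested on simulated data, and divided by the ChIP tags computed with 2700000000 genome positions. Genome windows with over 10% unknown bases were left out. Intervals are exact Poisson 95% intervals. With 1 library per line no test between lines was made.

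All 9 genes are given in every line, as are the strongest peaks at each gene, the 3 widest per line and other HOX genes with an equal state. The members, gene lists and the printed sequence were chosen with earlier results of these data known. Some genes and sequences that these rules cover are not reported here. PECAM1 had no match among the marker lists. Other lists counted were HOX cofactors, Polycomb and Trithorax genes. Python 3.11.15, numpy 2.4.6, scipy 1.17.1, pysam 0.24.0, matplotlib 3.10.9 and samtools 1.23.1 were used.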

Additional observations from a re-analysis of the deposited data

How the results depend on the processing

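Each line has 1 library, so no library could be left out. No paired analysis was possible because each line is 1 unrelated library and the labels give no replicate numbers. SKOV-3 had no peak at the cluster and no marked HOXC gene in any setting. Of the recomputed counts, covered bases, shared states and median fold enrichments, 104 stayed within 1.5 times the reported value, among them 6 marked genes in COLO-205 with a window of 2 kb, and 24 moved further. At a −log10 q of at least 10, COLO-205 had 0 marked HOXC genes and 2 peaks over 1714 bases in the interval, and OVCAR-3 had 3 peaks over 1385 bases, while DU-145 had 6 marked genes. At that threshold 31.7% of protein-coding genes were marked in COLO-205, 51.1% in DU-145 and 55.3% in OVCAR-3. With each list limited to its strongest peaks, as many as SKOV-3 has, COLO-205 had 0 marked genes with 2 peaks over 1714 bases, OVCAR-3 had 0 genes, 0 peaks and 0 bases, and DU-145 had 6 peaks and 4 genes, HOXC10, HOXC9, HOXC6 and HOXC4. Under it 21.8% of protein-coding genes were marked in COLO-205, 37.8% in DU-145 and 37.9% in OVCAR-3. Merging left OVCAR-3 with 4 peaks. The most upstream start alone gave 2 genes in COLO-205 and 1 in OVCAR-3, a window of 500 bp 1 in OVCAR-3, and the MANE Select start, an added setting, 1 in OVCAR-3. HOXC genes with the same state in both lines of a pair numbered 3 for COLO-205 and DU-145 and 9 for COLO-205 and SKOV-3 at a −log10 q of at least 10. With equal numbers of peaks they were 9 for COLO-205 and OVCAR-3, 9 for COLO-205 and SKOV-3 and 5 for DU-145 and SKOV-3. With the MANE Select start they were 3 for COLO-205 and DU-145 and 3 for DU-145 and OVCAR-3. The strongest HOXC9 peak of DU-145 by pileup is the wide one, with a fold enrichment of 5.36. The settings by −log10 q, by equal numbers of peaks and by single starts keep fewer peaks or starts by construction, and the cause of the other changes was not tested. The lists give no signal below the threshold, and the lowest pileup of a peak was 12 tags in COLO-205 and OVCAR-3, 14 in DU-145 and 11 in SKOV-3, so a weaker mark at HOXC12 or in SKOV-3 was not detectable.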

Other observations

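The shares of all protein-coding genes with a promoter peak, 59.8% for DU-145, 60.5% for OVCAR-3, 51.1% for COLO-205 and 31.6% for SKOV-3, are the background for the counts that follow. Of 9 genes for HOX cofactors of the PBX, MEIS and PKNOX families, 6 had a promoter peak in each of COLO-205, DU-145 and OVCAR-3 and 5 in SKOV-3, with PBX2, PBX3, MEIS2 and PKNOX1 marked in all 4 lines. MEIS3 was marked in none, and PKNOX2 in DU-145 only. Of 15 Polycomb genes, 15 were marked in DU-145, 14 in OVCAR-3, 13 in COLO-205 and 10 in SKOV-3. EZH2, the methyltransferase of Polycomb, had a peak in 3 lines and not in SKOV-3, and its partner SUZ12 had one in all 4. Of 10 Trithorax genes, which counteract Polycomb, all 10 were marked in OVCAR-3, while DU-145 marked 9, COLO-205 8 and SKOV-3 6. KMT2A, the methyltransferase best known for keeping HOX genes active, was marked in all 4 lines.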
